A study of Mus musculus with 4 samples.

Results

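The genes of prostaglandin synthesis, breakdown and reception were followed in mouse ST2 bone marrow stromal cells after low-intensity pulsed ultrasound (LIPUS), which is applied in the clinic to speed the healing of broken bone. The 10 genes were chosen by symbol, as Pla2g4a, Ptgs1, Ptgs2, Ptges, Ptges2, Ptgis, Hpgd, Ptger1, Ptger2 and Ptger4. A probe set annotated to a single one of these symbols was found for 9 of the 10, with 15 probe sets among the 18193 genes named on the array. Ptgs1 was not analysed here. ST2 is an established, fibroblast-like line of BALB/c origin, and it was grown in serum-containing medium at 37 °C. The 3 LIPUS groups received 20 min of ultrasound at 25 mW per square cm and were then cultured for 0.5, 1 or 3 h, and the control group received none. The labels do not say when the control cells were harvested or whether they were handled like the others. Each group is 1 Affymetrix whole-genome mouse array, so no difference has a replicate check, a test or a p-value.

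Prostaglandins are made from arachidonic acid that a phospholipase cuts from membranes. A cyclooxygenase, encoded by Ptgs1 or the inducible Ptgs2, turns it into an unstable intermediate, from which terminal synthases make the individual prostanoids. Prostaglandin E2 acts on neighbouring cells through the EP receptors and is inactivated by the dehydrogenase encoded by Hpgd. In bone, prostaglandin E2 made by osteoblasts and stromal cells is known to act in responses to mechanical loading and in fracture repair.

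The stretches around the annotated starts of Ptgs2 and Hpgd are shown because the results turn on these genes. The sequences are RefSeq's, build GRCm38.p6, plus strand, chr1:150099931-150100060 and chr8:56294452-56294581. Each holds 100 bases before the annotated start and 30 bases from it, and the capitals mark the motif matches.
Ptgs2: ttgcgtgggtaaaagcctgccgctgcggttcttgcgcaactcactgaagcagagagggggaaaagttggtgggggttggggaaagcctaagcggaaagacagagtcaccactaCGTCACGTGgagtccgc
Hpgd: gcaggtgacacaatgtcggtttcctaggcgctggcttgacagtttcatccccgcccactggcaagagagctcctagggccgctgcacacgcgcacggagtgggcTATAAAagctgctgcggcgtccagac
The capitals in Ptgs2 are a match to a partial cAMP response element, TGACG, on the minus strand at bases 14 to 18 counted from the annotated start, and an E-box, CACGTG, at bases 17 to 22. The matches share 2 bases. The capitals in Hpgd are a TATA motif, TATAAA, at bases 5 to 10. Of 32851 promoter windows of 300 bases, 20.8% held the partial element, 7.15% the E-box and 13.6% the TATA motif on either strand. The other motifs searched on both strands were the full cAMP response element TGACGTCA, AP-1 as TGANTCA, EGR as GCGNGGGCG and the heat shock element. None of these was found in the 300-base windows of Ptgs2, Hpgd or Ptger4, and they were present in 1.79%, 7.81%, 5.55% and 0.603% of all windows in that order. All the capitals lie after the annotated start, and whether ST2 cells start transcription there was not tested. A match is a run of letters and does not show a bound site.

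The deposited signals are on a log2 scale, and a floor was set at the median of all values, 5.23, below which a signal was treated as too dim to follow. By its brightest probe set, 6 of the 9 genes lay above the floor on all 4 arrays, namely Pla2g4a, Ptgs2, Ptges2, Hpgd, Ptger1 and Ptger4. Ptges was above it only at 3 h, and Ptgis and Ptger2 were under it on every array. A gene was counted as changed when 2 arrays differed 2-fold or more, a log2 difference of at least 1, and the words rose and fell are kept for that. Technical error was taken from pairs of probe sets of one gene, as the SD of the difference between their log2 ratios, divided by the square root of 2. Against control this technical SD was 0.106 at 0.5 h, 0.157 at 1 h and 0.137 at 3 h. It does not hold the differences between separate cultures, for which there are no data.

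At 0.5 h after LIPUS, 1 of the 6 measured genes rose at least 2-fold, against 0.138% of 11574 measured genes, and it was Ptgs2. At 1 h, 0 of 6 passed, against 0.191% of 11497 genes. At 3 h, 1 of 7 rose, against 0.0691% of 11574 genes, and it was Hpgd. None of the 9 genes fell 2-fold against the control at any time, and neither did any other measured gene. The 10 genes were listed with earlier results of these data known, so the shares describe them and test nothing.

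**Figure D1:**
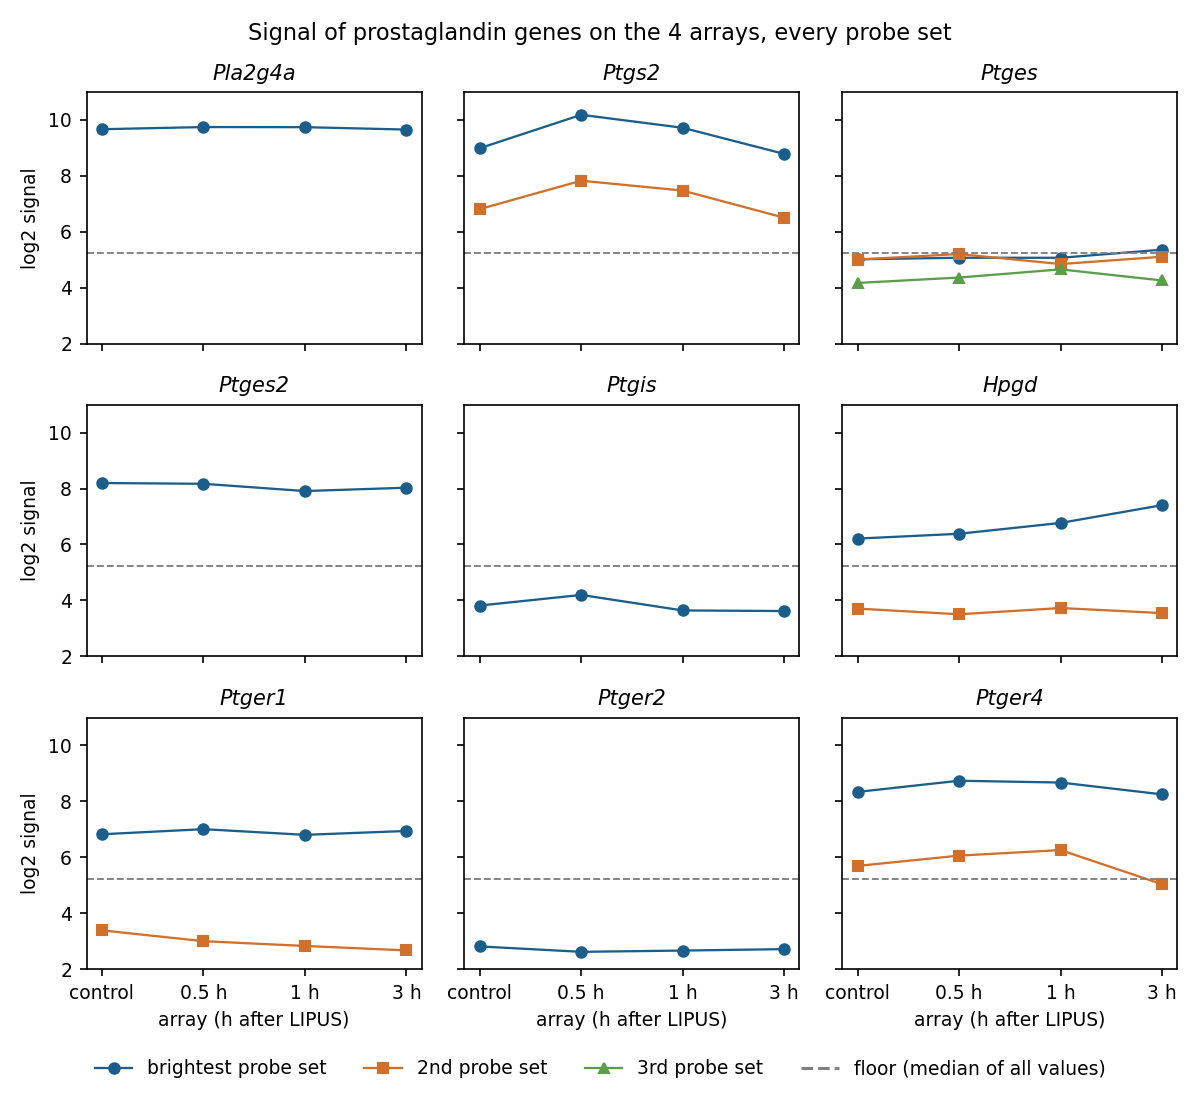
Log2 signal (y axis) of every probe set of the 9 genes on the control array and on the arrays at 0.5, 1 and 3 h after LIPUS (x axis), 1 array each, with the floor of 5.23 dashed. Both probe sets of Ptgs2 peak at 0.5 h, the brighter one of Hpgd is highest at 3 h, and those of Ptgis and Ptger2 stay under the floor.

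Pla2g4a encodes the cytosolic phospholipase that releases arachidonic acid. Its single probe set had log2 signals of 9.75 at 0.5 h, 9.74 at 1 h and 9.66 at 3 h after LIPUS, against 9.67 in the control. The 4 values lay close together, and the log2 ratios of 0.08, 0.07 and −0.01 were each within 1 technical SD. Pla2g4a and Ptgs2 are close neighbours on chromosome 1, with 0 protein-coding genes annotated between them. They had log2 ratios of 0.08 for Pla2g4a and 1.20 for Ptgs2 at 0.5 h.

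Ptgs2, the inducible cyclooxygenase, was high early and back near the control level by 3 h. Its brighter probe set had log2 signals of 10.18 at 0.5 h, 9.72 at 1 h and 8.78 at 3 h, against 8.99 in the control. The 0.5 h and 1 h arrays lay above the control and the 3 h array slightly below it. The log2 ratios were 1.20, 0.73 and −0.20, or 2.29-fold, 1.66-fold and 0.868-fold of the control. At 0.5 h this was the 14th highest of 11574 ratios and at 1 h the 57th highest of 11497.

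The dimmer probe set of Ptgs2 gave the same course. Its log2 signals were 7.83 at 0.5 h, 7.47 at 1 h and 6.50 at 3 h, against 6.81 in the control. The log2 ratios were 1.02, 0.66 and −0.31, so each probe set passed 2-fold at 0.5 h and neither did at 1 h or 3 h. At 3 h the brighter set lay 1.49 technical SDs below the control, and the dimmer set, at −0.31, lay further below it. Among 1885 other genes whose mean signal lay within 0.5 of that of the brighter set, 2 had a higher ratio at 0.5 h and the SD of the ratios was 0.13.

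The terminal synthases measured here did not pass the rule. Ptges, the inducible microsomal prostaglandin E synthase that often acts with Ptgs2, lay near the floor. Its brightest probe set had log2 signals of 5.07 at 0.5 h, 5.07 at 1 h and 5.36 at 3 h, against 5.01 in the control, so its ratio at 3 h is a lower bound of 0.13. Its other 2 probe sets were under the floor on all arrays, between 4.17 and 5.20.

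Ptges2, a second membrane-associated prostaglandin E synthase, had log2 signals of 8.17 at 0.5 h, 7.91 at 1 h and 8.03 at 3 h, against 8.20 in the control. All LIPUS arrays were below the control, by log2 ratios of −0.03, −0.29 and −0.17, the lowest of them 1.83 technical SDs from 0. Ptgis, the prostacyclin synthase, had log2 signals of 4.20, 3.64 and 3.62 at 0.5, 1 and 3 h after LIPUS and 3.82 in the control, all under the floor, and no ratio was taken.

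Hpgd, which encodes the dehydrogenase that starts prostaglandin breakdown, was highest on the last array. Its brighter probe set had log2 signals of 6.38 at 0.5 h, 6.77 at 1 h and 7.41 at 3 h, against 6.21 in the control. Every LIPUS array was above the control, and each later one above the one before. The log2 ratios were 0.17, 0.56 and 1.20, or 1.13-fold, 1.47-fold and 2.29-fold. At 3 h this was the 5th highest of 11574 ratios, and it was above all of 1619 other genes with a mean signal within 0.5 of that of Hpgd. The SD of the ratios of those genes was 0.19. At 0.5 h 178 of the 1619 genes had a higher ratio than Hpgd, whose 0.17 lay within their SD of 0.19.

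The value of Hpgd rests on 1 probe set, whose name ends in s_at, the platform's mark for probes that can match more than 1 transcript. The other Hpgd probe set lay between 3.50 and 3.73, under the floor on all arrays. With the floor at the 75th percentile of all values Hpgd lay under it on both arrays. Set against the other 3 arrays' mean, its ratio at 3 h was 0.95, short of the rule. The 12 probe sets that read bacterial control RNAs with a poly-A tail had median log2 ratios of −0.05 at 0.5 h, 0.28 at 1 h and 0.41 at 3 h. Their part in the course of Hpgd was not tested. With each array shifted by those medians, a scaling added after the data were seen, Hpgd was at 0.79 at 3 h and Ptgs2 at 1.25 at 0.5 h.

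**Figure D2:**
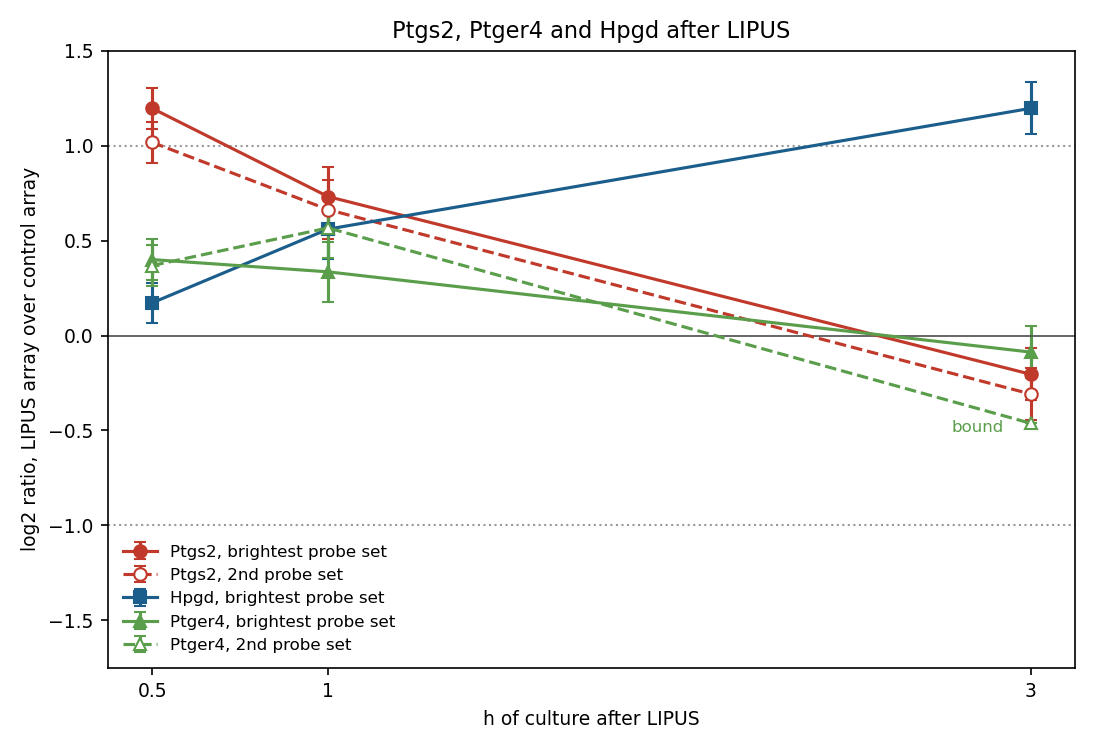
Log2 ratio of each LIPUS array over the control array (y axis) against h of culture after LIPUS (x axis) for Ptgs2, Hpgd and Ptger4, by probe set. Bars are ± 1 technical SD between probe sets of one gene (0.106, 0.157 and 0.137), dotted lines mark 2-fold, and the point marked bound has its 3 h signal under the floor. Ptgs2 starts at 1.20 and ends at −0.20, whereas Hpgd starts at 0.17 and ends at 1.20.

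The receptor genes of prostaglandin E2 differed in whether they could be measured at all. Ptger4, which encodes the EP4 receptor coupled to cAMP, had log2 signals of 8.74 at 0.5 h, 8.67 at 1 h and 8.25 at 3 h, against 8.34 in the control. The arrays at 0.5 h and 1 h lay above the control and the one at 3 h slightly below it. The log2 ratios of 0.40, 0.34 and −0.09 were short of the rule, the first being 3.76 technical SDs above 0 and the 87th highest of 11574 ratios. Among 2194 other genes of mean signal within 0.5 of that of this probe set, 18 had a higher ratio at 0.5 h. The SD of their ratios was 0.18, wider than the technical SD.

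A dimmer probe set of Ptger4 had log2 signals of 6.06 at 0.5 h, 6.26 at 1 h and 5.03 at 3 h, against 5.69 in the control. Its log2 ratios were 0.37 and 0.57 at 0.5 h and 1 h, and its signal at 3 h was under the floor, so that ratio is only known to be −0.46 or lower. Both probe sets were thus above the control at 0.5 h and 1 h and below it at 3 h, with different sizes at 1 h and 3 h.

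Ptger1, which encodes the EP1 receptor, had log2 signals of 7.00 at 0.5 h, 6.80 at 1 h and 6.94 at 3 h, against 6.82 in the control, with log2 ratios of 0.18, −0.02 and 0.12. Its values went both ways around the control and stayed within 1.71 technical SDs of it. Its second probe set, at 2.67 to 3.38, was under the floor. Ptger2, which encodes the other cAMP-coupled receptor EP2, was at 2.62 to 2.71 on the LIPUS arrays and 2.81 on the control array, under the floor throughout.

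The contrast of early Ptgs2 with late Hpgd can also be taken between LIPUS arrays, without the control array. These are the same LIPUS arrays, and the genes were chosen with earlier results known. The ranks below therefore describe the 2 genes and test nothing. Between the 3 h and 0.5 h LIPUS arrays, Ptgs2 fell by 1.40 on the log2 scale by its brighter probe set, 2.64-fold, and its dimmer one had a difference of −1.33. Hpgd rose by 1.02 over the same interval, 2.03-fold. Of 11582 measured genes, 0.121% were at least 2-fold lower at 3 h than at 0.5 h, and 0.0173% were at least 2-fold higher. Ptgs2 was the 9th lowest of these differences and Hpgd the second highest. The only other gene past 2-fold upward was Phxr4, named after its value was seen. Of the 7 listed genes measured here, the other 5 lay between −0.49 for Ptger4 and 0.13 for Ptges, a lower bound.

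Most of both changes lay between 1 h and 3 h, by the deposited signals. This is the longer interval, so the larger change there does not mean a faster one. From 0.5 h to 1 h the log2 differences were −0.46 for Ptgs2 and 0.39 for Hpgd. Between 3 h and 1 h they were −0.94 for Ptgs2 and 0.64 for Hpgd, short of the 2-fold rule, and Ptger4 was at −0.42. In that interval Hpgd had the highest difference of 11494 genes, of which 0.0870% fell and 0 rose at least 2-fold. Its rank was the 11th with the floor at the 25th percentile and the 19th with no floor, where dim genes enter. The dimmer Ptger4 probe set was at −1.03 or lower between 3 h and 1 h, at least 2.04-fold lower at 3 h, against −0.42 by the brighter one. For Hpgd, centring each array on its median put the 3 h minus 0.5 h difference at 0.99, and the poly-A shift put it at 0.57, each short of 2-fold.

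**Figure D3:**
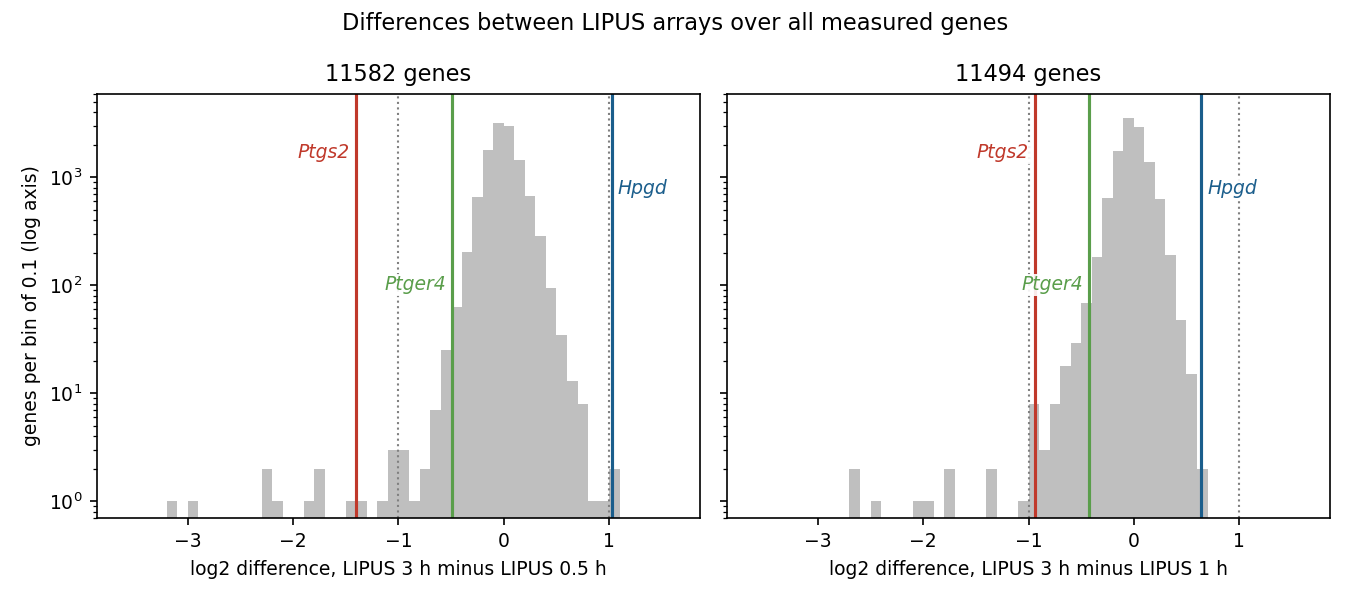
Number of genes (log axis) by log2 difference between LIPUS arrays (x axis, bins of 0.1), for 3 h minus 0.5 h on the left (11582 genes) and 3 h minus 1 h on the right (11494 genes). Lines mark Ptgs2, Ptger4 and Hpgd by their brightest probe sets, and dotted lines mark 2-fold. Ptgs2 lies at −1.40 and −0.94 in the lower tail, and Hpgd at 1.02 and 0.64 at the upper edge.

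The genes nearest to each course were found by Euclidean distance over the 3 log2 ratios against control, among 11440 other genes. They share the 4 arrays and the control with the genes they are compared with, so likeness here is a description. Nearest to Ptgs2 was Ccdc117, at log2 ratios of 1.22, 0.66 and −0.09 at 0.5, 1 and 3 h and a distance of 0.13. Then came Jun, an AP-1 subunit, at a distance of 0.33, Clk1 and Clk4, kinases of splicing factors, at 0.35 and 0.38, and Egr2, a zinc finger transcription factor, at 0.46. All of them were highest at 0.5 h.

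Nearest to Hpgd was Slc5a3, a myo-inositol transporter gene, at log2 ratios of 0.32, 0.83 and 1.12 and a distance of 0.31. Ptx3, which encodes a secreted pentraxin, followed at 0.36, Rspo3, an enhancer of WNT signalling, at 0.40, Banp at 0.43 and Otor at 0.46. All of these were highest at 3 h, but from 0.5 h to 3 h their log2 differences ran from 0.66 to 0.80, against 1.02 for Hpgd.

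Outside the 10 genes, 32 genes of arachidonic acid release, prostanoid synthesis, transport, breakdown and reception had a probe set, and 26, 25 and 25 were measured at 0.5, 1 and 3 h. Of these 0 passed 2-fold in either direction at any time, where 0.138%, 0.191% and 0.0691% of all measured genes rose and 0% fell, so a count of 0 in a list of this size does not set the pathway apart. Their log2 ratios ran from −0.14 to 0.40 at 0.5 h, from −0.26 to 0.34 at 1 h and from −0.24 to 0.43 at 3 h. The medians were 0.03, −0.02 and 0.01, beside medians over all measured genes of 0.01, 0.02 and 0.01.

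Among 13 measured genes of arachidonic acid release, the highest at 0.5 h and 3 h was Pla2g10, a secreted phospholipase gene, with log2 ratios of 0.40, −0.06 and 0.43. Acsl4, which encodes a ligase that activates arachidonic acid, was highest at 1 h, at 0.34. The median of this list was 0.05, −0.06 and −0.02. Akr1c18, an aldo-keto reductase gene, was the highest of the synthase list at 3 h, at 0.37. Synthases had 7, 7 and 8 measured members, with medians of 0.03, 0.03 and 0.05. Of these 1, 0 and 0 rose, the 1 being Ptgs2, where 0.138%, 0.191% and 0.0691% of all measured genes rose.

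Over all measured genes 0.138%, 0.191% and 0.0691% rose at 0.5, 1 and 3 h. Of 6 measured genes of transport and breakdown, 0, 0 and 1 rose, the 1 being Hpgd. The others included Ptgr1, a reductase that acts after Hpgd, at 0.23, 0.23 and 0.19, and the prostaglandin transporter gene Slco2a1 at −0.09, −0.16 and −0.15. Of 10 genes listed as prostanoid receptors, which include the receptor regulator gene Ptgfrn, 4 were under the floor on all arrays. Of the 6, 5 and 5 measured ones 0 passed, which is near the shares of all measured genes. The prostaglandin D2 receptor gene Ptgdr2 was above the floor only at 0.5 h, where its ratio of 0.27 is a lower bound, so its place relative to Ptger4 is not known. The 7 measured genes of the lipoxygenase branch, which makes leukotrienes from the same fatty acid, lay between −0.31 and 0.27. Of these 0 passed the rule, again near the shares of all measured genes.

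**Figure D4:**
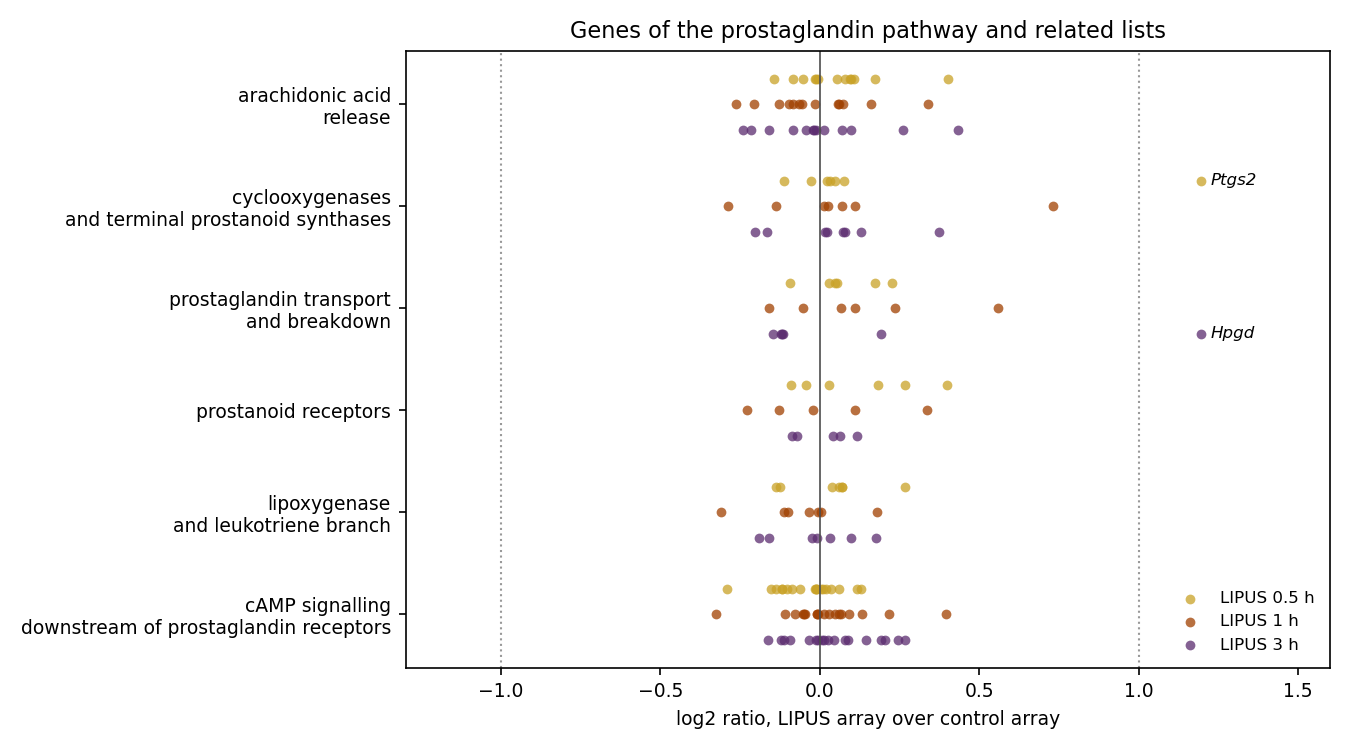
Log2 ratio of the LIPUS arrays over the control array (x axis) for each measured gene of 6 lists (rows), coloured by time after LIPUS, with dotted lines at 2-fold. Each point is 1 gene on 1 array, and the only points past 2-fold are Ptgs2 at 0.5 h (1.20) and Hpgd at 3 h (1.20).

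Genes of G protein and cAMP signalling downstream of prostaglandin receptors were also listed, with genes that answer cAMP. Gnaq and Gna11 are in the signalling list but do not carry the cAMP signal of EP2 and EP4. Of 19, 18 and 18 measured signalling genes, 0 passed 2-fold, which is near the 0.138%, 0.191% and 0.0691% of all measured genes that rose. Their medians were −0.01, 0.00 and 0.02, beside 0.01, 0.02 and 0.01 over all measured genes. The largest departures were for Gnaq, a G protein subunit gene, at 0.40 at 1 h, and for Rapgef3, a cAMP-activated exchange factor gene, at −0.33 at 1 h. Of 12, 12 and 11 measured cAMP and CREB target genes, 1, 1 and 0 rose, beside the same shares of all measured genes. That gene was Fos, a target of several pathways, at least 12.1-fold higher at 0.5 h and at least 5.80-fold higher at 1 h. The medians of the list were −0.0016, 0.08 and 0.10, and its other measured members, short of the rule, lay on both sides of the control. Among the higher ones Dusp1, a MAP kinase phosphatase gene, had log2 ratios of 0.98, 0.52 and 0.39, and Cebpb, a transcription factor gene, had 0.26, 0.60 and 0.10. The nuclear receptor gene Nr4a2 was at 0.08, 0.49 and 0.25. Among the lower ones Nr4a1, of the same receptor family, was at −0.03, −0.28 and −0.52, and the clock gene Per1 at −0.38, −0.45 and −0.26. These target genes include 9 that were under the floor on all arrays.

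The arrays had medians of 5.21 to 5.25 over 45101 probe sets. The deposited values were already scaled, so this match does not show that the arrays were alike before scaling. For 18S ribosomal RNA, 3 probe sets had median log2 ratios of 0.96, 1.91 and 1.79 at 0.5, 1 and 3 h, whose part in the ratios above was not tested. Of the 6 stromal markers with a probe set, 5 were above the floor, among them Col1a1 and Cxcl12, and Thy1 was under it. Macrophage markers were under the floor for 4 of 6, including Ptprc and Adgre1. Lyz2 was at log2 signals of 7.14 at 0.5 h, 7.22 at 1 h and 7.31 at 3 h, against 6.84 in the control, and Csf1r at 6.33, 6.27 and 6.25, against 6.32. Endothelial markers were under the floor for 3 of 4, lymphocyte markers for 1 of 2 and adipocyte markers for 2 of 2. Whether fewer cells expressed a gene or each cell held less RNA cannot be told apart in these bulk samples.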

How the data were processed

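Total RNA of 4 cultures was hybridised to 1 array each, with cRNA primed from the poly-A tail, per the labels' protocols. The authors deposited a log2 value for each probe set and array, scaled so that array medians nearly coincide. The base of the logarithm was inferred from the range of values. How probes were summarised and scaled is not given in the sources. No detection calls were used.

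Of 45101 probe sets, 34945 had 1 gene symbol in the platform annotation, 932 had several and 9211 were not listed. Symbols were updated through Entrez numbers for 34741. Each of 18193 genes was represented by its probe set of highest mean signal. Values under the median of all values (5.23) were raised to it. Genes with both arrays at or under that floor were left out of a comparison. A ratio with 1 array under the floor is a bound. With 1 array per group no test was possible, so a call is a log2 difference of at least 1. Technical error is the SD of the difference in log2 ratio between the 2 brightest probe sets of a gene, divided by the square root of 2. The number of arrays limits the precision. The call rule and the technical error were run on simulated arrays without differences between cultures. The planted changes were larger than the ratios of Ptgs2 and Hpgd and lay in genes brighter than Hpgd. The simulation therefore does not cover those 2 calls.

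The members, the 7 gene lists and the rule for named genes were chosen with earlier results of these data known. The rule takes all members, every list gene past 2-fold and the 5 genes nearest to Ptgs2 and to Hpgd. Other genes named were chosen after their values were seen. Alternatives covered the floor, scaling, choice of probe set, fold threshold and the array compared with. Promoter windows were available for 8 of the 10 genes. Quantile and cyclic loess scaling used limma 3.58.1 in R 4.3.3, and the rest Python 3.11.15, pandas 2.3.3 and numpy 2.4.6.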

Additional observations from a re-analysis of the deposited data

Results flagged for a closer look

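The log2 ratio of Ptgs2 against the control pointed opposite ways at different times. It was 1.20 at 0.5 h and −0.20 at 3 h, a difference of −1.40, and 0.73 at 1 h and −0.20 at 3 h, a difference of −0.94. Both signs lay more than 1 technical SD from 0, and the difference was not tested, since each time is 1 array. By the brightest probe set of each gene, no other of the 9 genes met this condition. The dimmer probe set of Ptger4 did, at 0.37 at 0.5 h, 0.57 at 1 h and −0.46 or lower at 3 h.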

How the results depend on the processing

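No paired analysis was possible because each group holds 1 array. Of 102 recalculated values of Ptgs2 and Hpgd, 85 moved by less than 1 technical SD, and in those and the other 17 no called value changed sign. Part of the 85 could not move, so the count overstates how firm the values are. Another floor leaves a gene above it unchanged, and Hpgd has only 1 probe set above the floor to average. The Ptgs2 ratio at 0.5 h stayed past 2-fold under all 10 alternatives, from 1.02 to 1.25, though the changes of floor could not move it. It was 1.02 by the second brightest probe set and 1.02 against the other 3 arrays' mean. Against that mean Ptgs2 was at 0.40 at 1 h and −0.85 at 3 h, and Hpgd at −0.41, 0.10 and 0.95 at 0.5, 1 and 3 h. With the arrays shifted by the poly-A controls, an alternative added after the data were seen that moves all genes on an array alike, Ptgs2 was at 0.45 at 1 h and −0.61 at 3 h, and Hpgd at 0.28 and 0.79. The same shift gave Ptgs2 −0.79 for 1 h minus 0.5 h, −1.07 for 3 h minus 1 h and −1.86 for 3 h minus 0.5 h, and Hpgd 0.059, 0.51 and 0.57. Of 103 recalculated ratios of the other measured genes of the 10, 96 moved by less than 1 technical SD, again with some that could not move.

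The count of listed genes past the rule at 3 h was 0, not 1, when the 75th percentile was the floor, by the second brightest probe set, at 3-fold, against the other 3 arrays' mean and with the poly-A shift. At 0.5 h it was 0 at 3-fold, and at 1 h it was 1 at 1.5-fold, the 1 being Ptgs2. The share of all genes past 1.5-fold or 3-fold was not counted, so these counts cannot be set against it. No value for Hpgd could be had with the floor at the 75th percentile or by its second probe set, both under the floor. Over all genes the count higher ran from 9 to 17 at 0.5 h (16 as reported), from 6 to 24 at 1 h (22) and from 1 to 9 at 3 h (8). The count lower reached 1, 12 and 21 in place of 0 at these times. Between 3 h and 0.5 h the counts ran from 0 to 2 higher (2) and from 7 to 40 lower (14), and between 3 h and 1 h from 2 to 18 lower (10). The 21, 12, 18 and 40 came from the poly-A shift. The signal over the floor limits Ptges and the dimmer Ptger4 probe set, whose ratios at 3 h are bounds.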
